A study of Homo sapiens with 15 samples.

Results

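The RNA recovered from 22Rv1 cells by a non-specific immunoglobulin G (IgG) was compared with the input RNA of the same line, to see which classes of RNA are carried through an immunoprecipitation without a specific antibody. The comparison used 3 IgG libraries, named A, B and C, and 2 input libraries, A and B. The table for 22Rv1 held 22542 gene rows, and the 17464 rows with at least 30 reads summed over the IgG libraries were compared one by one. These were 77.47% of the rows. Sums over whole classes of RNA used all 22542 rows.

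In RNA immunoprecipitation an antibody on beads pulls a protein out of a cell lysate together with the RNA bound or crosslinked to it. An IgG from animals not immunised against any cell protein has no chosen target, so its library holds the RNA that stays with antibody, beads or insoluble chromatin through the washes. The abundant structured RNAs of a cell are the signal recognition particle RNA, 7SK, the RNase P and RNase MRP RNAs and the spliceosomal and nucleolar RNAs. Messenger RNAs for ribosomal proteins are short, mature and largely cytoplasmic, while unspliced precursors and many long non-coding RNAs are kept in the nucleus close to chromatin.

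22Rv1 and LNCaP are established human prostate carcinoma lines, and no treatment or genetic change is recorded for either. The series held 15 samples: 22Rv1 with IgG (Sigma, 3), Brg1 (Abcam, 2), Sfpq (Genetex, 2) and input (2), and LNCaP with IgG, Brg1 and input (2 each). Brg1, encoded by SMARCA4, is a chromatin remodelling ATPase, and Sfpq is a nuclear RNA-binding protein of paraspeckles. All cells were lightly fixed with formaldehyde, the input RNA was diluted toward the concentration of the strongest immunoprecipitate, and all libraries received ERCC spike-in RNA and were depleted of ribosomal RNA before stranded sequencing. The labels do not say that the libraries of a group came from separate cultures, so the spread between them may be technical.

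The IgG libraries were shallow and unequal. IgG A held 4424105 reads, IgG B 1751329 and IgG C 490879, against 47871438 and 16037423 in the inputs. A count of 3 reads, taken here as the floor of detection, corresponded to 0.678, 1.71 and 6.11 reads per 1000000 reads of the library (RPM) in IgG A, B and C and to 0.0627 and 0.187 in the inputs. The rows with at least 30 IgG reads held 99.55%, 99.53% and 95.02% of the reads of IgG A, B and C, and 93.50% and 93.62% of those of the inputs. Of the 5078 rows below the limit, 4569 had an input share that would have given 30 or more IgG reads, so a row could pass by being high in IgG. At the edge of the rule, 69 rows had exactly 30 reads and 66 had 29. Values below are shares of each library, in percent or in RPM with no correction for gene length, so they describe composition and not the amount of RNA recovered. On the deposited scale the IgG columns summed to 0.43%, 0.372% and 0.665% of the mean input, and nearly every row was lower in IgG than in input.

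IgG and input differed in which form of the same genes they held. Each gene could have a plain row and a row with the suffix .primary, whose meaning the sources used here do not state. The .primary rows held 62.53%, 59.48% and 39.13% of the reads of IgG A, B and C, against 38.22% and 34.77% in the inputs. All 3 IgG libraries lay above both inputs, but IgG C stood only just above input A. The mean was 53.71% ± 12.72 (SD, n = 3) in IgG and 36.5% ± 2.44 (SD, n = 2) in input, a difference of 17.22 percentage points with a 2-sided exact permutation p of 0.2, the smallest that 3 against 2 libraries allow. Without IgG A, B or C in turn, or without either input, the difference ranged from 12.81 to 24.51 points. For the 8077 genes with both rows, the median log2 ratio of the .primary to the plain row was 0.58 and 0.47 in IgG A and B, and it was -0.33 in IgG C, -0.21 in input A and -0.40 in input B. IgG C therefore lay between the inputs by this measure, and A and B lay above them. In the same table the .primary share was 65.67% and 62.74% in the Brg1 libraries and 27.46% and 33.39% in the Sfpq libraries.

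**Figure D1:**
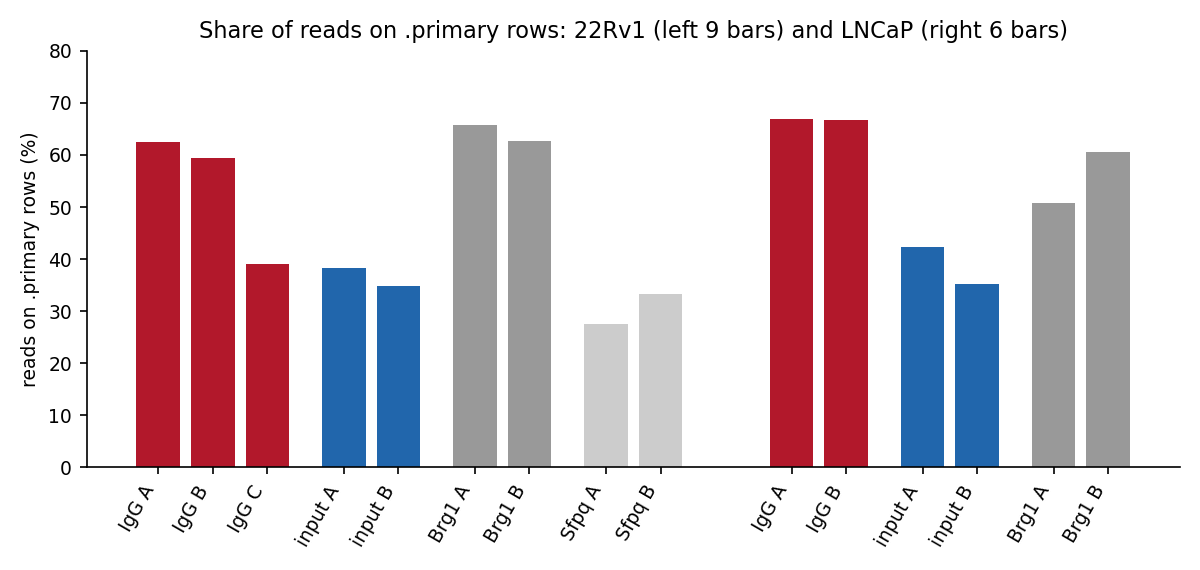
Share of each library's reads (percent) in rows with the suffix .primary, 1 bar per library, coloured by group, with 22Rv1 on the left and LNCaP on the right. IgG A and B of 22Rv1 reach 62.53% and 59.48% and IgG C 39.13%, and the LNCaP IgG libraries reach 66.87% and 66.80%, each above both inputs of its own line.

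Small structured RNAs had the lowest share in IgG relative to input of any class of plain rows. The 25 plain rows of this class made up 0.818%, 0.611% and 1.33% of IgG A, B and C, against 6.75% and 7.55% of the inputs. All 3 IgG libraries lay far below both inputs, with a mean share 10.0-fold higher in the inputs than in IgG A and B and 5.38-fold higher than in IgG C. The class mean was 0.919% ± 0.369 (SD, n = 3) in IgG and 7.15% ± 0.566 (SD, n = 2) in input. The low share was not particular to IgG: the class held 0.647% and 0.559% of the Brg1 libraries and 0.320% and 0.275% of the Sfpq libraries. No 95% Wilson interval for a class share was wider than 0.28 percentage points in these libraries, and such intervals cover counting error only.

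Of the 18 rows of this class with at least 30 IgG reads, 8 were called lower and 2 higher in IgG A and B than in input (limma, adjusted p under 0.05), beside 7.67% and 7.64% of all rows compared. By form, 13% of plain rows were called lower and 1.37% higher, and 2.64% of .primary rows lower and 13.6% higher, and class counts below are to be read against these shares. Here and below, calls take the spread from all 22Rv1 libraries. Under a spread of its own for IgG, an alternative chosen after seeing the data, 0 of the 17464 rows were called higher and 1 lower (1320 had an unadjusted p under 0.05), so every call named here for A and B except that of AC106886.5 rests on the shared spread.

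RN7SL1, a gene of the RNA scaffold of the signal recognition particle (chr14:49586580-49586878), stood at 2479, 1933 and 4203 RPM in IgG A, B and C and at 25673 and 32888 in the inputs. Its share was 13.3-fold lower in IgG A and B than in input, a log2 difference of -3.73 (SE 0.177, adjusted p = 0.00197, limma). The near-identical copy RN7SL2 showed 1925, 1250 and 3276 against 18805 and 20544, and reads may be divided between the copies. Without RN7SL1 the class still held 0.571%, 0.418% and 0.908% of the IgG libraries and 4.18% and 4.26% of the inputs. RN7SK, which holds the elongation factor P-TEFb in an inactive particle (chr6:52995620-52995951), had 2072, 1402 and 4274 RPM in IgG and 15624 and 15418 in input. Its log2 difference was -3.19 in IgG A and B (SE 0.186, adjusted p = 0.00197, limma) and -1.86 in IgG C (adjusted p = 0.027).

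The catalytic RNAs differed in size of effect. RPPH1, the RNA of RNase P, was at 189, 404 and 389 RPM in IgG against 4500 and 4235 in input, a log2 difference of -3.98 for A and B (SE 0.335, adjusted p = 0.00197, limma). RMRP, the RNA of the related RNase MRP, was at 187, 172 and 185 against 514 and 324, with a log2 difference of -1.19 (adjusted p = 0.0226, limma). The RMRP difference for IgG C was -1.13 and did not pass the test (adjusted p = 0.12, limma). Small RNAs of the nucleus outside these particles did not share 1 pattern. SNORD3A, the U3 nucleolar RNA that acts in ribosomal RNA processing, varied from 65.1 to 839 RPM in IgG against 1140 and 1122 in input and did not pass (adjusted p = 0.191, limma). RNU1-1, the U1 spliceosomal RNA, was lower, at 22.6, 8.56 and 10.2 against 297 and 122. SCARNA2, a guide RNA of Cajal bodies, had 248, 78.2 and 566 in IgG around inputs of 239 and 295.

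The 2 rows of the small structured class called higher in IgG were microRNA genes that lie inside longer transcribed units. MIR663A, on chr20:26208186-26208278 within the span of MIR663AHG, stood at 68.3, 78.8 and 24.4 RPM in IgG A, B and C against 11.1 and 8.23 in the inputs. All IgG libraries were above both inputs, with a log2 difference of 2.94 for A and B (SE 0.403, adjusted p = 0.00364, limma). MIR3648-1, within the span of the ribosomal RNA precursor gene RNA45SN2 on chromosome 21, stood at 82.1, 399 and 48.9 against 25.1 and 16.1, a log2 difference of 3.17 (SE 0.729, adjusted p = 0.0216, limma). A microRNA hairpin is far shorter than these host units, and reads of host and hairpin cannot be told apart by the row name. The mature product of MIR663A is printed from RefSeq (GRCh38.p14, chr20:26208243-26208264, minus strand), because it is unusually rich in G and C, at 90.9% of its 22 bases. Capitals mark its seed, bases 2 to 8.
hsa-miR-663a: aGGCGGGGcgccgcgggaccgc

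**Figure D2:**
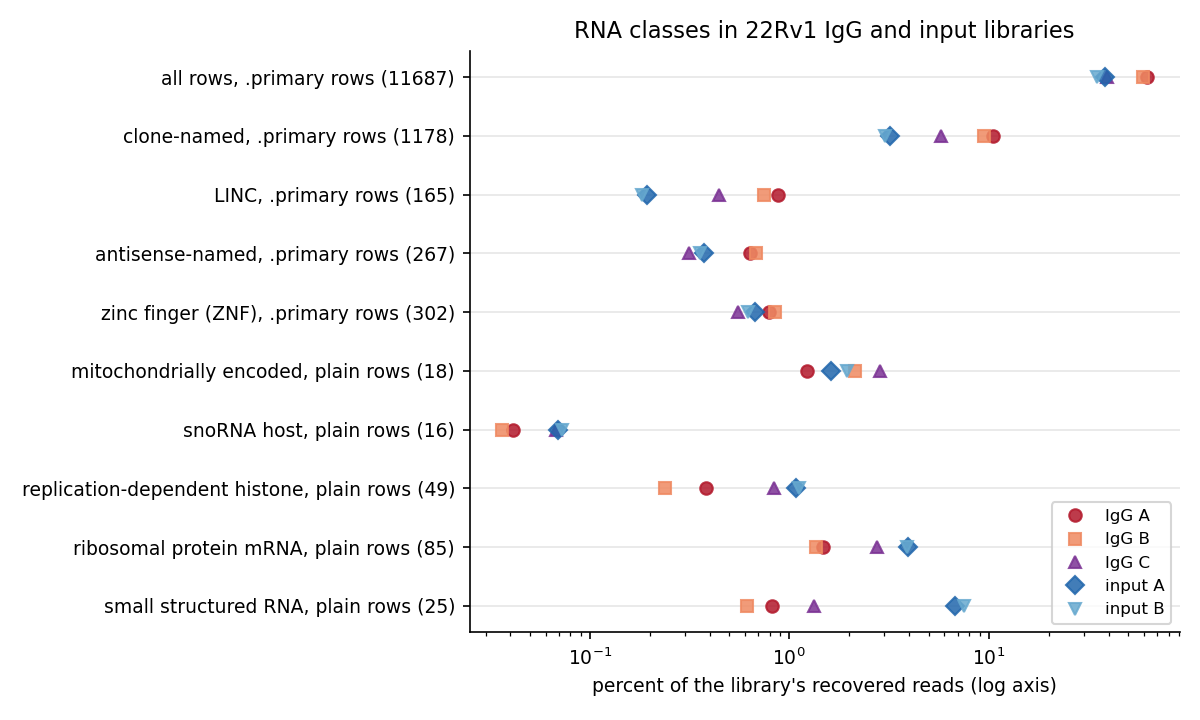
Share of each 22Rv1 library (percent, log axis) in the named RNA classes, 1 point per IgG or input library. Small structured RNA lies between 0.611% and 1.33% in IgG and at 6.75% and 7.55% in input, while LINC-named .primary rows lie above both inputs in every IgG library.

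Messenger RNAs for ribosomal proteins were also a smaller share of IgG than of input. Their 85 plain rows held 1.48%, 1.36% and 2.76% of IgG A, B and C, against 3.94% and 3.90% of the inputs. This was 2.75-fold lower in IgG A and B and 1.42-fold lower in IgG C, and no IgG library reached an input. The Brg1 libraries, at 1.07% and 1.205%, and the Sfpq libraries, at 1.276% and 0.891%, were below both inputs too. Of the 83 rows with at least 30 IgG reads, 64 were called lower in IgG A and B than in input and 0 higher (limma, adjusted p under 0.05). RPS2, a protein of the small subunit, was at 931, 521 and 1868 RPM in IgG against 2362 and 2315, a log2 difference of -1.75 for A and B (adjusted p = 0.0055, limma). RPL4, of the large subunit, was at 608, 530 and 1137 against 1474 and 1562, a log2 difference of -1.42 (adjusted p = 0.00232, limma). In all 3 IgG libraries together, 71 of the 83 rows lay below both inputs, beside 14.5% of all rows compared, and 1 lay above, beside 8.13%.

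Replication-dependent histone mRNAs, most of which carry no poly(A) tail, lay below input in every IgG library as a sum. Their 49 plain rows held 0.383%, 0.237% and 0.835% of IgG against 1.09% and 1.12% of input, 3.55-fold lower in A and B and 1.32-fold lower in C. Of 45 rows compared, 21 were called lower and 0 higher (limma). HIST1H1C, a linker histone, was at 364, 233 and 621 RPM against 999 and 972, a log2 difference of -1.76 for A and B (adjusted p = 0.00512, limma). The core histone row HIST1H2BD was at 162 in IgG A and at 0 in IgG B and C, against 360 and 329 in the inputs, so libraries of 1 group disagreed on whether the RNA was present at all. Histone genes are near-identical copies, and reads may be split among them. Of the same family, HIST1H2BC.primary went the other way in IgG A and C, at 52.7, 0.571 and 106 against 0.209 and 0.312.

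The next sets of plain rows also lay below both inputs as sums. From a list of 22 cytoskeletal and glycolytic genes, 14 plain rows were called lower and 0 higher in IgG A and B (limma), and their summed level was 4364, 3603 and 8770 RPM in IgG A, B and C against 9038 and 9601 in the inputs. ACTB, cytoplasmic actin, was at 510, 297 and 845 against 939 and 1015. GAPDH, a glycolytic enzyme, was at 435, 419 and 868 against 855 and 920, so IgG C fell between the inputs where A and B were below them. Of 21 plain rows for proteins of the endoplasmic reticulum and the secretory route, 12 were called lower and 0 higher, with a summed level of 1463, 1409 and 2646 against 3371 and 3556. HSPA5, the chaperone of the endoplasmic reticulum, was at 53.6, 74.2 and 147 against 218 and 236. Plain rows of 26 splicing regulators gave 6 called lower and 0 higher, beside the 13% of plain rows called lower, and a sum of 4957, 4526 and 6755 against 6942 and 7112. Their 22 .primary rows gave 2 called higher and 1 lower. Hosts of small nucleolar RNAs, 16 plain rows of genes whose introns carry those RNAs, held 0.0413%, 0.0363% and 0.0674% of IgG against 0.0689% and 0.0727% of input, and 3 of 12 rows compared were called lower.

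Mitochondrially encoded RNA did not separate IgG from input. Its 18 rows held 1.23%, 2.14% and 2.87% of IgG A, B and C against 1.62% and 1.94% of the inputs, with A below and B and C above. In IgG C 15 of the 18 rows exceeded both inputs, while in IgG A 11 were below both. Of all 8483 plain rows compared, 3879 exceeded both inputs in IgG C and 5599 were below both in IgG A. The count for IgG A was therefore near that of plain rows in general. MT-CO1, a subunit of cytochrome c oxidase, ran from 3480 in A through 5311 in B to 8118 in C, against 5266 and 5993. MT-ND5, a subunit of respiratory complex I, was at 2092, 3903 and 5101 against 1710 and 2276. Only 1 row was called higher and 1 lower in A and B against input. The higher one was MT-TH, the transfer RNA for histidine, at 73.2, 114 and 143 RPM against 12.2 and 13.9. The lower one was MT-CO2, also a subunit of cytochrome c oxidase, at 733, 1035 and 1780 against 1437 and 1779, where IgG C was level with the higher input.

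LINC-named and clone-named loci in their .primary form held a larger summed share of all 3 IgG libraries than of the inputs. The excess was not particular to IgG. The Brg1 libraries held 0.445% and 0.405% in LINC-named and 6.88% and 6.51% in clone-named .primary rows, above both inputs too. The Sfpq libraries held 0.189% and 0.215% in LINC-named and 2.78% and 3.31% in clone-named .primary rows. Among rows taken by input share, the median row was above input only for LINC rows in IgG A. Rows named LINC (165 .primary rows, long intergenic non-coding genes) held 0.881%, 0.745% and 0.443% of IgG against 0.193% and 0.183% of input, 4.33-fold higher in A and B and 2.36-fold higher in C. LINC01184.primary (chr5:127940440-128083175) stood at 2184, 2439 and 703 RPM against 49.8 and 45.2, a log2 difference of 5.6 for A and B (SE 0.185, adjusted p = 0.00197, limma) and 3.89 for C (adjusted p = 0.00866). Without it the class still held 0.663%, 0.501% and 0.373% against 0.188% and 0.178%. Over 111 LINC .primary rows taken by their input share, the median log2 difference from input was 0.49 in IgG A, -0.97 in B and -0.02 in C. The larger sums in B and C were thus not shared by the median row. Of 118 LINC .primary rows compared, 15 were called higher and 0 lower in IgG A and B (limma), which is 12.7% against 13.6% of all .primary rows. LINC00486.primary differed more between the IgG libraries, at 2712, 734 and 55 RPM against 13.1 and 13.

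Rows named only by a genomic clone, 1178 in their .primary form, held 10.5%, 9.44% and 5.75% of IgG against 3.21% and 3.02% of input. FP671120.1.primary alone stood at 60736, 46748 and 24564 RPM against 7943 and 8345, a log2 difference of 2.71 (SE 0.151, adjusted p = 0.00197, limma), and it was the row with the most IgG reads. The next clone-named rows were FP236383.1.primary at 6018, 9321 and 2750 against 1950 and 1442, and AC016205.1.primary at 2348, 2507 and 1043 against 796 and 714. FP671120.1 matched no gene of the RefSeq table. Without FP671120.1.primary the class held 4.46%, 4.77% and 3.30% of IgG against 2.42% and 2.19% of input. The place of IgG above input did not rest on this row, but the order of IgG A and B did. The median over 900 clone-named .primary rows taken by input share was below input in every IgG library, at -0.22, -2.17 and -0.70. Antisense-named .primary rows (267) held 0.634%, 0.683% and 0.313% against 0.374% and 0.359%: A and B were above both inputs and C below them. Zinc-finger genes named ZNF, many of them repressors of transposable elements, held 0.790%, 0.853% and 0.552% in their 302 .primary rows against 0.671% and 0.618%, the same order. The sums of the LINC-named and clone-named rows had C above the inputs. The Brg1 libraries were above both inputs for antisense-named .primary rows, at 0.7915% and 0.7423%, and for ZNF .primary rows, at 0.9842% and 0.9289%.

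The nuclear long non-coding RNAs did not share 1 order of the IgG libraries. MALAT1, an abundant RNA of nuclear speckles, was at 4616, 4420 and 2449 RPM in IgG against 2614 and 2738 in input, a log2 difference of 0.76 for A and B (SE 0.066, adjusted p = 0.00197, limma) and -0.13 for C (adjusted p = 0.458). NEAT1, the scaffold of paraspeckles, was at 1478, 1537 and 739 against 447 and 379. Its log2 difference was 1.87 for A and B (SE 0.133, adjusted p = 0.00197, limma), and all IgG libraries exceeded both inputs. In the Brg1 libraries MALAT1 was at 6593 and 5801 and NEAT1 at 1095 and 1088, above both inputs too. SCHLAP1.primary, from a non-coding gene studied in prostate cancer, was at 40.5, 20.6 and 65.2 against 16.6 and 13.8, highest in C, and did not pass the test (adjusted p = 0.187, limma).

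Among .primary rows the share in IgG relative to input was higher for longer genes. Gene spans came from RefSeq for 89.6% of .primary rows, and to keep the choice of rows apart from IgG the rows were taken by the share in input alone. In the shortest quintile of spans, with a median of 10.9 kb, the median log2 difference from input was -2.32 in IgG A, -3.47 in B and -0.80 in C. In the longest quintile, with a median of 217 kb, it was 0.96, 0.63 and -0.09. The medians were higher in each successive quintile in each of the IgG libraries, over a wide range in A and B and a narrow one in C. Plain rows had the same order over a smaller range in A, from -1.53 to -0.67, and the shortest quintile of plain rows held 21.5%, 19.3% and 23.3% of the plain reads in IgG A, B and C against 34.7% in both inputs. The longest quintile held 48.4%, 47.2% and 37.9% of the .primary reads of IgG A, B and C, against 36.2% and 35.8% in the inputs. Zero counts in the shallow libraries enter these medians, and short, low rows are the most exposed to them.

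**Figure D3:**
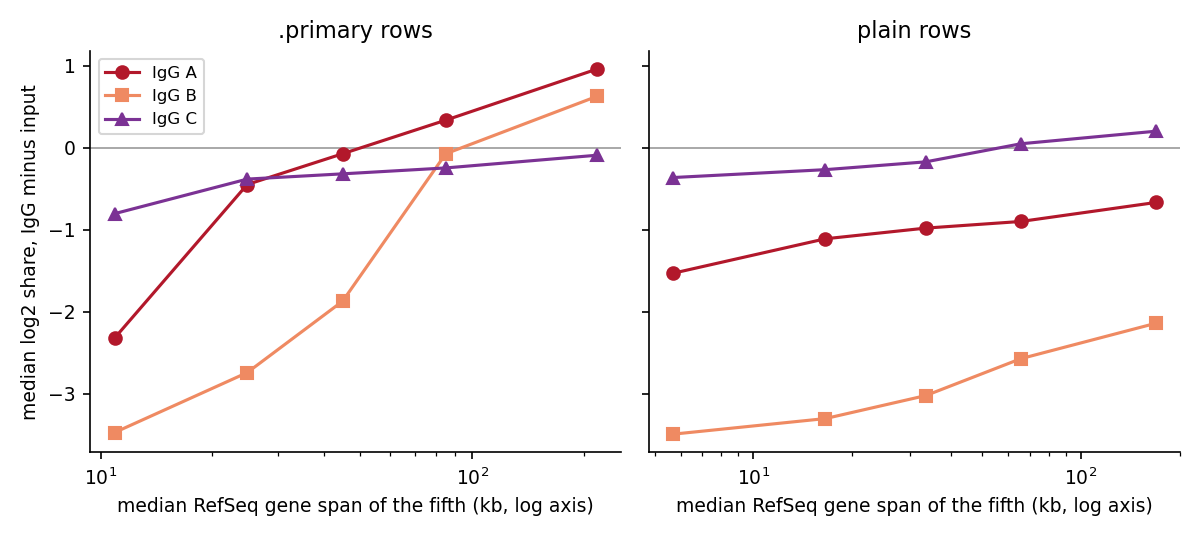
Median log2 difference in share between each IgG library and the mean input for rows ordered into quintiles by RefSeq gene span (kb, log axis), with .primary and plain rows apart. In .primary rows IgG A runs from -2.32 to 0.96 and IgG C from -0.80 to -0.09.

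A list of genes known for very long introns was taken apart from this order. It had 23 .primary rows, whose summed level was 6942, 7381 and 3418 RPM in IgG A, B and C against 2485 and 2234 in the inputs. Of the 21 rows compared, 13 were called higher and 0 lower in IgG A and B (limma). GPC6.primary, from a gene for a cell-surface glypican, was at 1313, 1587 and 699 against 389 and 365, a log2 difference of 1.94 (adjusted p = 0.00197, limma). DMD.primary, from the dystrophin gene, was at 90.6, 87.4 and 4.07 against 10.1 and 7.79, so IgG C was below both inputs there. PTPRD.primary varied from 10.8 to 88.8 in IgG against 17.9 and 15.1 and did not pass (adjusted p = 0.483, limma). Plain rows of the same list summed to 372, 479 and 689 in IgG against 555 and 583 in input, without separation of the groups.

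Row by row, 1335 of the 17464 rows were called higher and 1340 lower in IgG A and B than in input (limma, adjusted p under 0.05). With rows taken by their input share in place of their IgG reads the counts were 1263 and 5223, and with no minimum 1336 and 5492, so the even split followed from choosing rows by IgG reads. By form, 1217 of the 1335 higher rows and 237 of the 1340 lower rows were .primary. The highest rows in IgG A and B had low input shares and differed in IgG C. PCSK2.primary, from the gene of a prohormone convertase of endocrine cells, was at 3172, 1609 and 10.2 RPM against 8.63 and 4.43, a log2 difference of 8.51 (SE 0.731, adjusted p = 0.00197, limma). AC084357.3.primary, a clone-named row, was at 579, 148 and 30.6 and had 0 reads in both inputs, at least 2910-fold higher in A and B than the floor of 3 reads per library. C19orf18.primary was high in all 3, at 129, 155 and 108 against 0.146 and 0.499, with a log2 difference of 8.94 (SE 0.83) for A and B. AC084357.3.primary and C19orf18.primary were compared only because they were high in IgG. Their excess over input was thus partly fixed by the choice of rows. FAM81B.primary had 9296 in IgG A but 6.28 and 26.5 in B and C, against 4.57 and 1.56, and did not pass (adjusted p = 0.181, limma). The count of calls depended on which libraries set the spread. Without IgG A there were 5833 higher and 9174 lower rows, and without IgG B 5856 and 6463, since no pair of like IgG libraries then enters the spread. Without input A the counts were 332 and 323, without input B 291 and 312, and with IgG and input alone in the fit 96 and 45. When trimmed-mean (TMM) factors replaced the library totals the split became 2427 higher and 742 lower.

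The lowest rows in IgG A and B had few or no reads there and were compared only because IgG C held at least 30 reads, so their presence in C was fixed by the choice of rows. AC106886.5, a clone-named row, had 0 reads in IgG A and B and 108 RPM in C, against 178 and 194 in input, at least 156-fold lower in A and B. AC106886.5 was the 1 row still called with a spread of its own for IgG (adjusted p = 0.0101, limma). CSNK1E.primary, from a casein kinase gene, had 0, 0 and 99.8 against 131 and 115, at least 103-fold lower. ARF6, a small GTPase of membrane traffic, had 0, 0 and 112 against 70.1 and 70.7, at least 58.9-fold lower. PPIAP22, a pseudogene that can share reads with PPIA, had 0, 0 and 147 against 74.0 and 73.5.

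**Figure D4:**
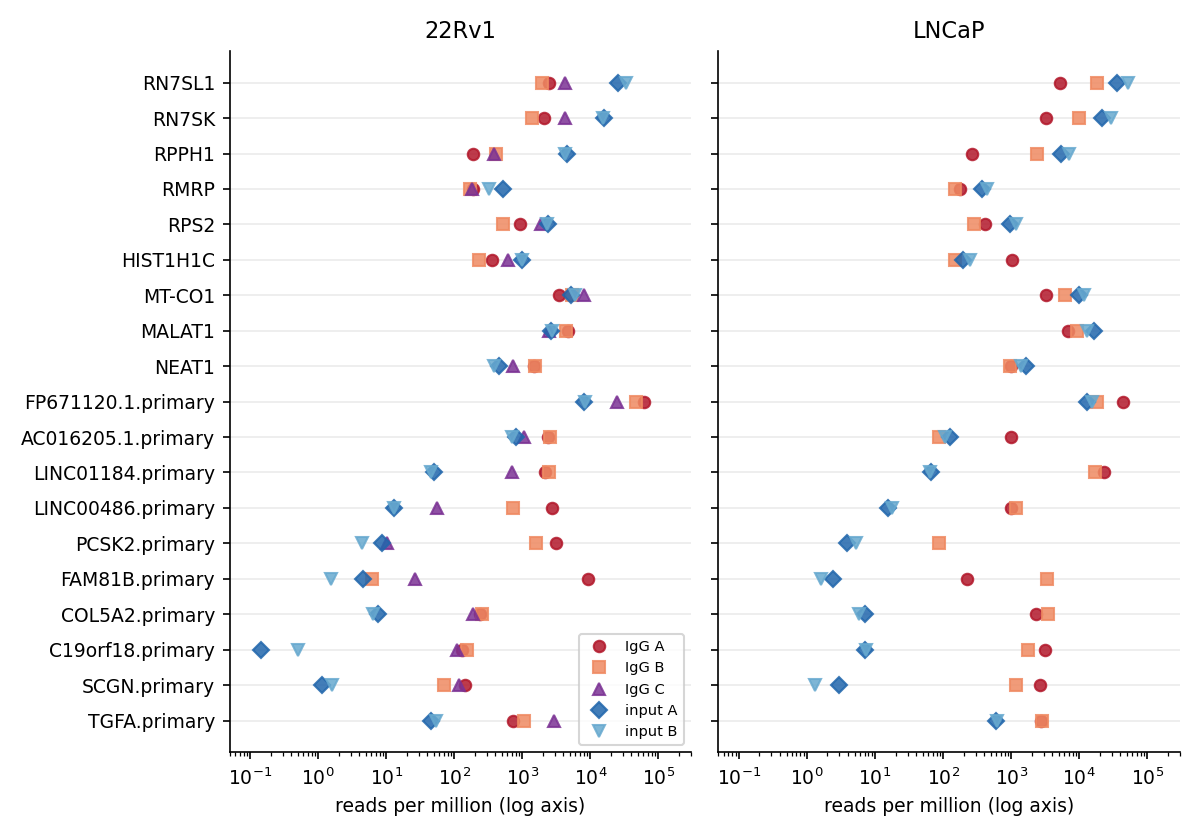
Share of each library (RPM, log axis, counts of 0 not drawn) for rows named in the text, in 22Rv1 and LNCaP. RN7SL1 runs from 1933 to 4203 in 22Rv1 IgG under inputs of 25673 and 32888, and LINC01184.primary from 703 to 2439 over inputs of 49.8 and 45.2.

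IgG C was also compared by itself, as an arm of 1 library, which has a larger standard error than A and B together. It had 58 rows called higher and 485 lower than input (limma), 0.332% and 2.78% of those compared, and these counts do not measure how near C lay to input. Against IgG A and B it had 1063 rows called higher, 6.09%, and 1801 lower, 10.3%. With a spread of its own for IgG, none of these calls remained in either comparison (0 rows, against 369 and 342 at an unadjusted p under 0.05), and edgeR on the recovered reads called 21 higher and 12 lower than input and 918 higher and 1428 lower than A and B. Without either input the comparison of C with input gave 0 calls, and without IgG A or B it gave 4828 and 4853 higher. Against IgG A and B, removing either input left 480 rows higher in C, and 1023 or 1027 lower. Removing IgG A gave 8365 higher and 5969 lower, and removing IgG B 6251 and 6975. RPL13.primary, from a ribosomal protein gene, had 271 RPM in C, 0 and 1.14 in A and B, and 12.7 and 10.5 in the inputs, and it entered the comparison through its reads in C. In the other direction RBMS3.primary, from the gene of an RNA-binding protein, had 119 and 384 in A and B and 0 in C, against 29.8 and 21.7. FILIP1L.primary likewise had 397 and 490 in A and B and 0 in C, with 0.251 and 0.125 in the inputs, but it was not called between C and A and B. Both rows entered through A and B.

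Across the 3669 rows whose input share predicted at least 30 reads in IgG C, the Spearman correlation of shares was 0.594 between IgG A and B, 0.391 between A and C and 0.380 between B and C. These are correlations across genes of single libraries, given as descriptions. The same value was 0.938 between the inputs. IgG C had 0.615 and 0.659 with the inputs and 0.632 with Sfpq A, but 0.328 with Brg1 A. IgG A had 0.777 with Brg1 A and 0.237 with Sfpq A, and IgG B had 0.609 and 0.278. By these values A and B lay nearer to Brg1 A, and C nearer to the inputs and Sfpq A. Depth differed among these libraries, and its part in the ranking was not tested.

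Replicates of IgG differed more than those of any other group. Over the rows compared, the median absolute log2 difference was 2.45 between IgG A and B, 1.35 between A and C and 1.87 between B and C. It was 0.159 between the inputs, 0.170 between the Brg1 libraries and 0.227 between the Sfpq libraries. Many of the rows compared had few or no reads in 1 or more IgG libraries. Over the 3669 rows taken by input share, the value was 0.914 between IgG A and B, 1.0 between A and C and 1.1 between B and C. It was 0.121 between the inputs there, so the order of the IgG pairs depended on the rows used. Over the same 3669 rows as above, 15 rows had 0 reads in IgG A, 0.409%, 53 in IgG B, 1.44%, and 31 in IgG C, 0.845%. Both inputs and Sfpq A had 0 such rows. The inputs were much deeper than the IgG libraries, but Sfpq A, at 7139669 reads, was nearer to IgG A, at 4424105. Over all rows whose input share predicted 30 or more reads in the library itself, 1215 of 19940 were empty in IgG A and 1166 of 13208 in IgG B, 6.09% and 8.83%.

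**Figure D5:**
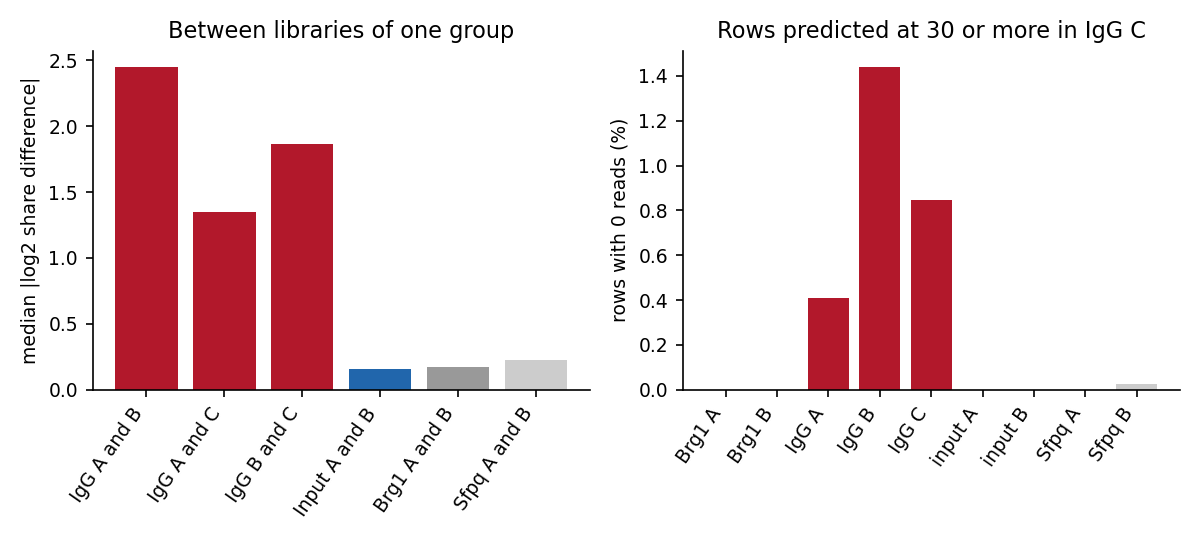
Left, median absolute log2 difference between replicate libraries over the rows compared; right, percent of rows with 0 reads in each library among the 3669 rows whose input share predicted 30 or more reads in IgG C. IgG pairs lie between 1.35 and 2.45 against 0.159 for the inputs, and 0.409%, 1.44% and 0.845% of the rows were empty in IgG A, B and C.

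A small set of rows was far above input in every IgG library. By a rule set after the values were seen, 26 rows exceeded both inputs more than 5-fold in all 3 IgG libraries with more than 3 reads, 24 of them .primary. Together they held 1.81%, 2.11% and 3.17% of IgG A, B and C, against 0.0824% and 0.0819% of the inputs. Of these, 17 .primary rows were also more than 2-fold above both inputs in both Sfpq libraries. Their sum was 0.987%, 1.67% and 3.03% of IgG A, B and C, 0.378% and 0.391% of Sfpq, 0.0722% and 0.0737% of Brg1, and 0.0747% and 0.0747% of input. IgG C, the shallowest library, had the highest share of them. TGFA.primary, from the gene of an epidermal growth factor receptor ligand, was at 737, 1064 and 2958 RPM against 46.2 and 54.4. PCDH10.primary, from a protocadherin gene, was at 592, 1609 and 2681 against 58.7 and 46.9. KCNH5.primary, from a potassium channel gene, was at 596, 1465 and 2274 against 47.7 and 48.4, again in the order C, B, A. Without these 17 rows the .primary share was 62.16%, 58.79% and 37.23% in IgG and 38.18% and 34.72% in input, which placed IgG C between the inputs. Other rows of the 26 had no such order: COL5A2.primary, from a fibrillar collagen gene, was at 242, 256 and 189 against 7.60 and 6.36, and SCGN.primary, from a calcium-binding protein gene, between 69.7 and 143 against 1.15 and 1.62.

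The LNCaP libraries gave a second look at IgG, at much lower depth. The IgG libraries held 22184 and 46297 reads, so a floor of 3 reads was 135 and 64.8 RPM, and the widest 95% Wilson interval of a class share was 1.31 percentage points. In IgG A the plain row of SMARCA4, which encodes Brg1, held 7212 RPM (160 reads), against 194 in IgG B and 211 and 218 in the LNCaP inputs. In 22Rv1 the same row was at 262, 265 and 308 in IgG, 310 and 296 in input and 12446 and 16356 in the Brg1 libraries, and the LNCaP Brg1 libraries held 12763 and 10406. LNCaP IgG A thus carried a transcript that was high in the Brg1 libraries of both lines, and values are given for each LNCaP library apart. Small structured RNA held 1.51% and 4.52% of LNCaP IgG against 9.52% and 13% of input. The .primary share was 66.87% and 66.80% against 42.26% and 35.17%. LINC-named .primary rows held 3.34% and 2.97% against 0.409% and 0.352%, with LINC01184.primary at 23485 and 16826 RPM against 66.6 and 63.7. Ribosomal protein mRNAs held 1.25% and 1.19% against 2.5% and 2.94%. These 4 classes stood on the same side of input in both lines, in LNCaP IgG B alone as in A. Histone mRNAs did not, at 0.509% and 0.140% against 0.228% and 0.287%, and mitochondrial RNA was below both inputs in LNCaP, at 1.07% and 2.31% against 3.86% and 4.58%. Of the 26 rows above, 23 were in the LNCaP table, and 21 of them had both IgG libraries above both inputs. The same count over all LNCaP rows was not taken, so 21 of 23 cannot be set against a general share or read as agreement between the lines. Of the 17 rows also high in Sfpq, 16 were in the LNCaP table. They held 3.07% and 2.87% of LNCaP IgG, 0.758% and 0.657% of Brg1 and 0.63% and 0.676% of input. All 17 held 0.0747% of each 22Rv1 input, so these rows were a larger share of LNCaP input too. SCGN.primary was at 2660 and 1188 against 2.98 and 1.33, and COL5A2.primary at 2299 and 3499 against 7.09 and 5.86. AC006504.7.primary was not among the 21, at 0 and 43.2 in LNCaP IgG, under the floor, against 656 and 714 in input.

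Genes that mark the cells and the antibody targets were not called in IgG A and B against input. HOXB13 and FOXA1, transcription factors of prostate luminal cells, and the luminal keratins KRT8 and KRT18 lay between 14.1 and 39.4 RPM in the inputs. Of the markers of other lineages, the row present was COL1A1, a fibrillar collagen, at 14.5, 0 and 12.2 in IgG and 17.6 and 20 in input. SFPQ was below both inputs in all 3 IgG libraries, at 342, 206 and 344 against 452 and 449, and missed the threshold (adjusted p = 0.0572, limma). Of 19 plain rows for subunits of the SWI/SNF complexes, to which Brg1 belongs, 3 were called lower and 0 higher in IgG A and B (limma), near the 13% of all plain rows called lower. Of their 12 .primary rows, 1 was called higher and 1 lower.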

How the data were processed

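The authors deposited 1 table per cell line of normalized counts, treated here as a signal, with 1 column per library. Each column divided by its smallest positive value gave whole reads (100% of values within 0.001 of a read), and shares are those reads over the library total. The submitters' processing notes name STAR 2.6, Salmon 0.8.2, deepTools 2.5.2, DESeq2 and hg38 without giving their order. The annotation and the meaning of the suffix .primary are not given in the sources used here. Groups came from the labels.

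Log2 shares with 0.5 reads added were fitted with limma 3.58.1 (R 4.3.3) over all 22Rv1 rows and all 9 libraries, with IgG A and B as 1 group and IgG C as another. Benjamini-Hochberg adjustment ran over the whole table, and rows with 30 or more IgG reads are counted. The fit assumes that IgG varies like the other groups. The code was tested on simulated data. Alternatives used edgeR 4.0.16, DESeq2 1.42.0, voom, TMM factors, the deposited values, other pseudocounts and minimums, and left-out libraries. Classes were assigned by gene name. RefSeq (GRCh38.p14) supplied spans and sequences by symbol, with 20995 rows matched (93.1%). Libraries were not paired by replicate letter in the main fit. Deviations from the group means correlated at -0.0173, 0.00592 and 0.00533 for IgG with input, Brg1 and Sfpq. With a single A and B pair in each group and a wide spread in IgG, these values cannot show whether same-letter libraries were paired.

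The members and lists were chosen with earlier results of these data known, and the name patterns of the classes were written after the tables were seen. Named rows were up to 10 a direction with the largest called differences for A and B and up to 5 for C against A and B, at 10 or more RPM in the higher group, the 10 with the highest IgG shares, the 2 with the most IgG reads in each class, and list members. Others, such as MIR663A, RPPH1, MT-TH and the rows high in every IgG library, were chosen after their values were seen. Of the 10 rows with the highest IgG shares, 1 is not reported here, and KLK2, KLK3 and 4 further marker genes were not analysed here. With 3 against 2 libraries only the spread between these samples is measured, intervals are 95% Wilson, and the floor is 3 reads.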

Additional observations from a re-analysis of the deposited data

Results flagged for a closer look

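A few results lay on opposite sides of input in the 2 cell lines in every IgG library, and the difference between lines was not tested. NEAT1 had a mean of 1251 RPM in 22Rv1 IgG, above both inputs, while in LNCaP IgG it was at 992 and 972 under inputs of 1628 and 1378. SCHLAP1.primary averaged 42.1 RPM in 22Rv1 IgG, above inputs of 16.6 and 13.8, and was at 1037 and 1188 in LNCaP IgG, below inputs of 1736 and 1443. AC006504.7.primary averaged 1976 RPM in 22Rv1 IgG against 71.4 and 72.3, and in LNCaP IgG it was at or under 3 reads, below inputs of 656 and 714. Clone-named plain rows averaged 0.705% of 22Rv1 IgG against 0.544% and 0.527%, and held 0.334% and 0.626% of LNCaP IgG against 0.638% and 0.674%. Without the row AC022217.3 the 22Rv1 IgG shares were 0.448%, 0.521% and 0.560% against 0.543% and 0.527%. LNCaP IgG A carried the high SMARCA4 value given above, and its part in these differences was not tested.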

How the results depend on the processing

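Counts of rows called are given as higher then lower. For IgG A and B against input (1335 and 1340), 100 or more reads gave 683 lower, no minimum 5492 lower, rows taken by input share 5223 lower, and fitting only the compared rows 681 and 738. TMM gave 2427 and 742, edgeR with TMM 2592 and 626, edgeR with totals 1389 and 1120, DESeq2 3989 higher, voom 884 higher, the deposited values 2 and 17431, IgG and input alone 96 and 45, and all 3 IgG libraries as 1 group 18 and 3. A spread of its own for IgG gave 0 and 1. The fit with a replicate block gave 931 and 1046, and IgG C could not be fitted in it. For IgG C against input (58 and 485), a pseudocount of 0.1 gave 137 and 1321 and one of 2 gave 21 and 18. No minimum and rows taken by input share each gave 839 lower, the compared rows alone 31 and 237, the deposited values 1 and 17431, voom 1731 lower, either edgeR fit 21 and 12, and DESeq2 400 higher. IgG and input alone, and the IgG spread, each gave 0 and 0. For IgG C against A and B (1063 and 1801), 100 reads gave 547 higher, no minimum 3363, input-chosen rows 3176, TMM 610, voom 420 and edgeR with TMM 528. The deposited values gave 1709 and 590, and DESeq2 3656 lower. IgG and input alone, and the IgG spread, gave 0 and 0. With 1 library left out, A and B against input ranged from 291 to 5856 higher and 312 to 9174 lower. C against input ranged from 0 to 4853 and 0 to 6689, and C against A and B from 480 to 8365 and 1023 to 6975. On the deposited values 3 rows reversed: DNAL4.primary to -0.17, AF165147.1.primary to -0.97 and LINC00486.primary to -1.19. The cause of these changes was not tested.

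The spread of its own for IgG, the rows taken by input share and the share without 17 rows were chosen after seeing the data. TMM moved every log2 difference of A and B by 0.54. It left small structured, ribosomal protein, histone and snoRNA host rows below input and .primary rows above, and turned mitochondrial RNA and the plain LINC, antisense, ZNF and remaining rows from below to above. The .primary difference stayed between 15.53 and 17.64 points under the other settings. Depth limits IgG C to rows above 6.11 RPM.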

Other observations

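Rows between IgG libraries of 1 group could differ by whole orders of magnitude at high counts. AC022217.3, a clone-named plain row, was at 4700, 1135 and 36.7 RPM in IgG A, B and C against 2.07 and 0.374 in the inputs, and at 180 and 1037 in LNCaP IgG against 0.142 and 0.133. RTN4RL1.primary, from a Nogo receptor family gene, was at 1310, 345 and 153 against 15.7 and 14.9. AF165147.1.primary was at 1349, 1056 and 8.15 against 11.2 and 7.92. Androgen-regulated genes gave 2 rows called higher and 0 lower of 8 .primary rows, and 0 higher and 2 lower of 12 plain rows, in IgG A and B against input (limma), beside 13.6% of all .primary rows called higher and 13% of all plain rows called lower.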
